A study of Mus musculus with 12 samples.

Results

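The genes described here carry names of sperm tail and axoneme genes, though not all of them were high in testis. They were chosen by name alone, as every feature whose symbol begins with Odf, Cfap, Tekt, Dnah, Dnai, Dnal or Spag followed by a digit, or is Dnali1, with symbols containing "-ps" left out. This rule found 76 members among 47730 features. Of these, 74 are protein coding and 2 are transcripts antisense to members, Dnah2os and Spag17os. The 76 members lie on 18 chromosomes and fall into 8 outer dense fibre genes, 5 tektins, 15 dynein heavy chains, 3 dynein light chains, 10 genes of the central apparatus, 25 other cilia and flagella associated (CFAP) genes, 8 other sperm associated antigen (SPAG) genes and the 2 antisense transcripts. The SPAG symbol was given for antigenicity, so several of its members have roles outside the tail.

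PolyA RNA was sequenced from testis and from skeletal muscle, gastrocnemius with plantaris, of male C57BL/6J mice aged 5 to 6 months. One group carried the mutant Bckdk allele on both chromosomes (BckdkM/M, named KO in the sample titles) and the other was wild type (Bckdk+/+). The mutant allele had been backcrossed for at least 10 generations, and all mice ate freely and were sampled between ZT6 and ZT7. Bckdk encodes the kinase that inhibits the branched-chain ketoacid dehydrogenase, and the series asks how branched-chain amino acid supply bears on testis function and movement. Each of the 4 groups had 3 libraries, named here by a letter per mouse: D, E and F for BckdkM/M testis, D, F and G for BckdkM/M muscle, and A, B and C for wild-type testis and muscle.

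Values are normalised counts, that is, reads divided by a size factor per library, and levels of different genes are compared only per kilobase (kb) of exon. The libraries held 12852427 to 15795722 reads. In muscle, Bckdk had 14.8, 14.3 and 12.4 normalised counts in BckdkM/M libraries D, F and G, against 2214, 2421 and 2627 in libraries A, B and C of wild type. In testis, it had 138, 119 and 114 in D, E and F, against 68.0, 73.3 and 71.0 in A, B and C of wild type, so the testis libraries labelled BckdkM/M held more Bckdk reads and not fewer. The deposited feature NeoR was higher in those same testis libraries, at 13.1, 19.9 and 18.6 normalised counts, against 1.76, 2.50 and 3.34 in wild type. For this reason D, E and F are called the testis libraries labelled BckdkM/M throughout. Transcripts of skeletal muscle fibres were present in testis at summed normalised counts of 12954, 11566 and 11947 in D, E and F, against 5486, 266 and 12956 in A, B and C of wild type. Pancreatic islet markers summed to 10887, 13056 and 12226 in D, E and F, against 18510, 18289 and 10045 in A, B and C, so testis A and B stood apart.

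The axoneme of a sperm tail is a ring of microtubule doublets around a central pair. Outer and inner dynein arms on the doublets slide them past each other, radial spokes and the central apparatus regulate that sliding, and tektins lie inside the doublet wall. Outer dense fibres run alongside the axoneme in the midpiece and principal piece and stiffen it. Motile cilia of airway, brain ventricle and oviduct use much of the same machinery, partly through other heavy-chain genes. The genes are transcribed in meiotic and haploid germ cells, where RFX factors, FOXJ1 and CREM are known regulators.

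RFX factors bind the X-box, a pair of inverted GTTGCC half-sites, so promoter windows of the members were read for it. The windows come from RefSeq on GRCm38.p6 and span 250 bases before to 50 bases after a gene's start. Of the 76 members 61 had a window, with 73 windows in all. The half-site GTTGCC, or GGCAAC on the other strand, was found in 26 of these 73 windows (35.6%), against 12.5% of all 32851 windows, and these 26 belonged to 23 members. A whole palindrome, taken as GTTNCC and GGNAAC with 2 free bases between them, overlaps the half-site where its letters allow, and was in 1 member window (1.37%), against 0.451% of all windows. The cyclic AMP response element TGACGTCA, the site that CREM can bind, was in 3 member windows (4.11%), those of Dnah6, Spag4 and Spag6l, against 1.79% of all windows. A match is a description of letters and not a bound site. By role, a half-site was in the windows of 5 of 9 central apparatus members, 3 of 5 tektins, 4 of 8 inner-arm heavy chains, 8 of 19 other CFAP members, 2 of 6 outer dense fibre members, 1 of 5 other SPAG members, 0 of 5 outer-arm heavy chains and 0 of 3 light chains.

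The window of Cfap298, a member that was also present in muscle, is shown because it holds the single whole palindrome as taken above. It lies at chr16:90934800-90935099 (GRCm38.p6, minus strand) and reads 5′ to 3′ with half-sites on either strand in capitals. A second pair of inverted half-sites 3 bases apart lies closer to the start.
Cfap298: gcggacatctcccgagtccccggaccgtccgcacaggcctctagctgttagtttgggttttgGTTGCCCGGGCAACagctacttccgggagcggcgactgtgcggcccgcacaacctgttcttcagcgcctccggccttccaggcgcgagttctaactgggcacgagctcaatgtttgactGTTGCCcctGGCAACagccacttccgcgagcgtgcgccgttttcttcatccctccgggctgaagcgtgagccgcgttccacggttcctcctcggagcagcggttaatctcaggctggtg

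The window of Tekt2 at chr4:126325597-126325896 (GRCm38.p6, minus strand) is shown as that of a tektin with a half-site on each strand, in capitals.
Tekt2: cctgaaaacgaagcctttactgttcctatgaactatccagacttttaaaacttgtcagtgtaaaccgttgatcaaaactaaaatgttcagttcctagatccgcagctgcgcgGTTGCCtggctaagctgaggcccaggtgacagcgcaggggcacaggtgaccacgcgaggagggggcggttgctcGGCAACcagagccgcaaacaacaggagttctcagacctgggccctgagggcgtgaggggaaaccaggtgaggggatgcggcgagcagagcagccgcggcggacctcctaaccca

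Sites of 22 bases around a half-site of 10 members, drawn from the tektins, central apparatus, other CFAP members and inner-arm heavy chains, are set side by side, each on the strand that reads GTTGCC, with the half-site in capitals. They were picked to show the letters after the half-site, which differ between members, including the paralogs Dnah7a, Dnah7b and Dnah7c. In Cfap44 and Spag16 the sites end in agcaac and agtaac. The palindrome search asked for GGNAAC there, so it did not count such pairs, and looser pairs were not searched for.
Tekt1: tccgtccgGTTGCCatagagac
Tekt4: ggttcctgGTTGCCtaaggaac
Cfap44: ttactgcgGTTGCCatagcaac
Cfap74: agccttccGTTGCCatggagct
Spag16: ggcaacgcGTTGCCgtagtaac
Spag6: tccgactgGTTGCCcaggagtg
Spag6l: tgctgtcgGTTGCCctggagac
Dnah7a: tcctcacaGTTGCCtgccaccc
Dnah7b: ggagcacaGTTGCCacccaccc
Dnah7c: tcctcagaGTTGCCttccaccc

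In testis the members together took 1.96%, 1.92% and 1.97% of all normalised counts in D, E and F labelled BckdkM/M, against 1.93%, 1.97% and 2.00% in A, B and C of wild type. The genotype ranges overlap. Within that total the members tested spanned more than 3 orders of magnitude per kb, as shown in the plot of levels by role.

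**Figure D1:**
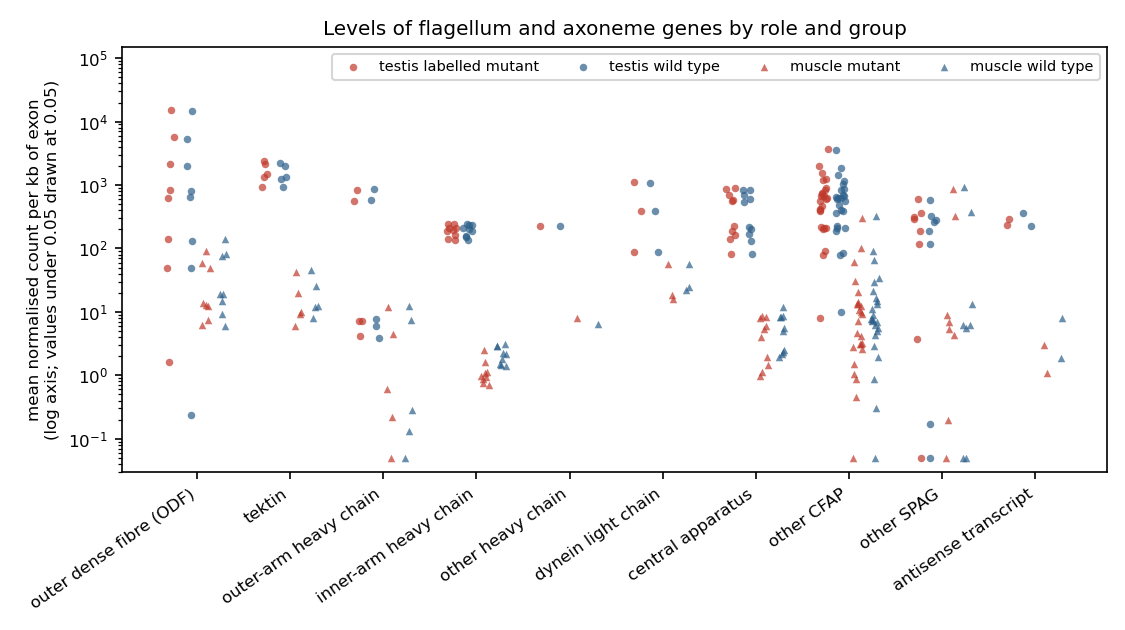
Mean normalised count per kb of exon (log axis) of each member, by role, in testis labelled mutant, testis wild type, mutant muscle and wild-type muscle (3 libraries each). Odf1 has the highest testis level, 15105, 3 outer-arm heavy chains lie below 10 in testis, and most muscle points lie far below their testis points.

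Odf2 (chr2:29889221-29931746, plus strand, GRCm38) encodes the main coiled-coil protein of the outer dense fibres and is also a centriole component. It had the highest normalised count of all 47730 features in every testis library, with 55974, 57583 and 56653 in D, E and F, against 53433, 54637 and 51263 in A, B and C of wild type. The 3 libraries labelled BckdkM/M lay above the 3 wild-type ones, by 0.10 on the log2 scale (95% interval 0.01 to 0.18, unadjusted p = 0.036, limma adjusted p = 0.70, rank 67 of 47310 per kb in wild type). As a share of all normalised counts the groups overlapped, at 0.432%, 0.440% and 0.435% in D, E and F, against 0.426%, 0.438% and 0.407% in A, B and C. With TMM scaling, edgeR or DESeq2, 0 of 7 outer dense fibre members tested had an unadjusted p below 0.05. Per kb, Odf1 (chr15:38219203-38226735), a small heat shock-like protein of the fibres, was the highest member and ranked 10 of 47310 features in wild type. Odf1 had 15897, 17647 and 16530 normalised counts in D, E and F, against 16578, 15374 and 16177 in A, B and C of wild type, and the groups overlapped. Odf4, a membrane protein of the tail, averaged 2148 per kb in testis labelled BckdkM/M and 2018 per kb in wild type.

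None of the 73 members tested in testis differed between the genotypes by limma at an adjusted p below 0.05. Over all genes tested, 4 of 19543 did (0.0205%). The smallest adjusted p of a member was 0.70. Odf3l2, Spag11a and Spag11b were too low to be tested, and the genes listed as Dnaic1 and Dnaic2, older symbols of the intermediate chains Dnai1 and Dnai2, fall outside the naming rule. The median log2 change of the 73 members was 0.035, and that of all genes tested was 0.034. Of the 73 members 53 were higher and 20 lower in the libraries labelled BckdkM/M. Of all 19543 genes tested, 11642 were higher and 7901 lower, so the direction counts of smaller lists below stand against a general upward split. With TMM scaling the member split was 35 higher and 38 lower, and that of all genes 9573 and 9970, with a median of -0.00 over the members and over all genes.

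At an unadjusted p below 0.05 there were 10 of 73 members (13.7%), against 7.09% of all genes, with 8 higher, against 5.57%, and 2 lower, against 1.52%. With TMM scaling 4 of 73 did (5.48%), against 5.39% of all genes, edgeR gave 5 of 73 (6.85%) against 5.17%, and DESeq2 gave 4 of 73 (5.48%) against 3.20%. Without wild-type testis libraries A and B, C was the only wild-type library left. The median log2 change there was 0.025 over the members, against 0.024 over all genes. The values of the libraries labelled BckdkM/M and of wild type did not overlap for 13 of 73 members (17.8%), against 13.4% of all genes. Of these, 10 were higher in D, E and F, against 9.72% of all genes, and 3 were lower, against 3.67%. The 10 were Odf2, Tekt1, Tekt3, Tekt4, Spag6l, Spag5, Cfap206, Cfap36, Cfap52 and Cfap97d1, and the 3 were Dnah2, Dnah2os and Cfap74.

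The data bound the size of any difference. The 95% interval lay within 0.5 of 0 on the log2 scale, that is, between 0.707-fold and 1.41-fold, for 69 of 73 members. The other 4 were Cfap97d2, Dnah11, Spag8 and Dnah2os, and the highest mean among them was 521 normalised counts, of Spag8 in testis labelled BckdkM/M. Of the 52 members with a testis mean of at least 1000 normalised counts, all 52 had intervals within 0.5, and 43 had intervals within 0.25 (0.841-fold to 1.19-fold). The forest plot of testis log2 changes shows all 73 intervals.

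**Figure D2:**
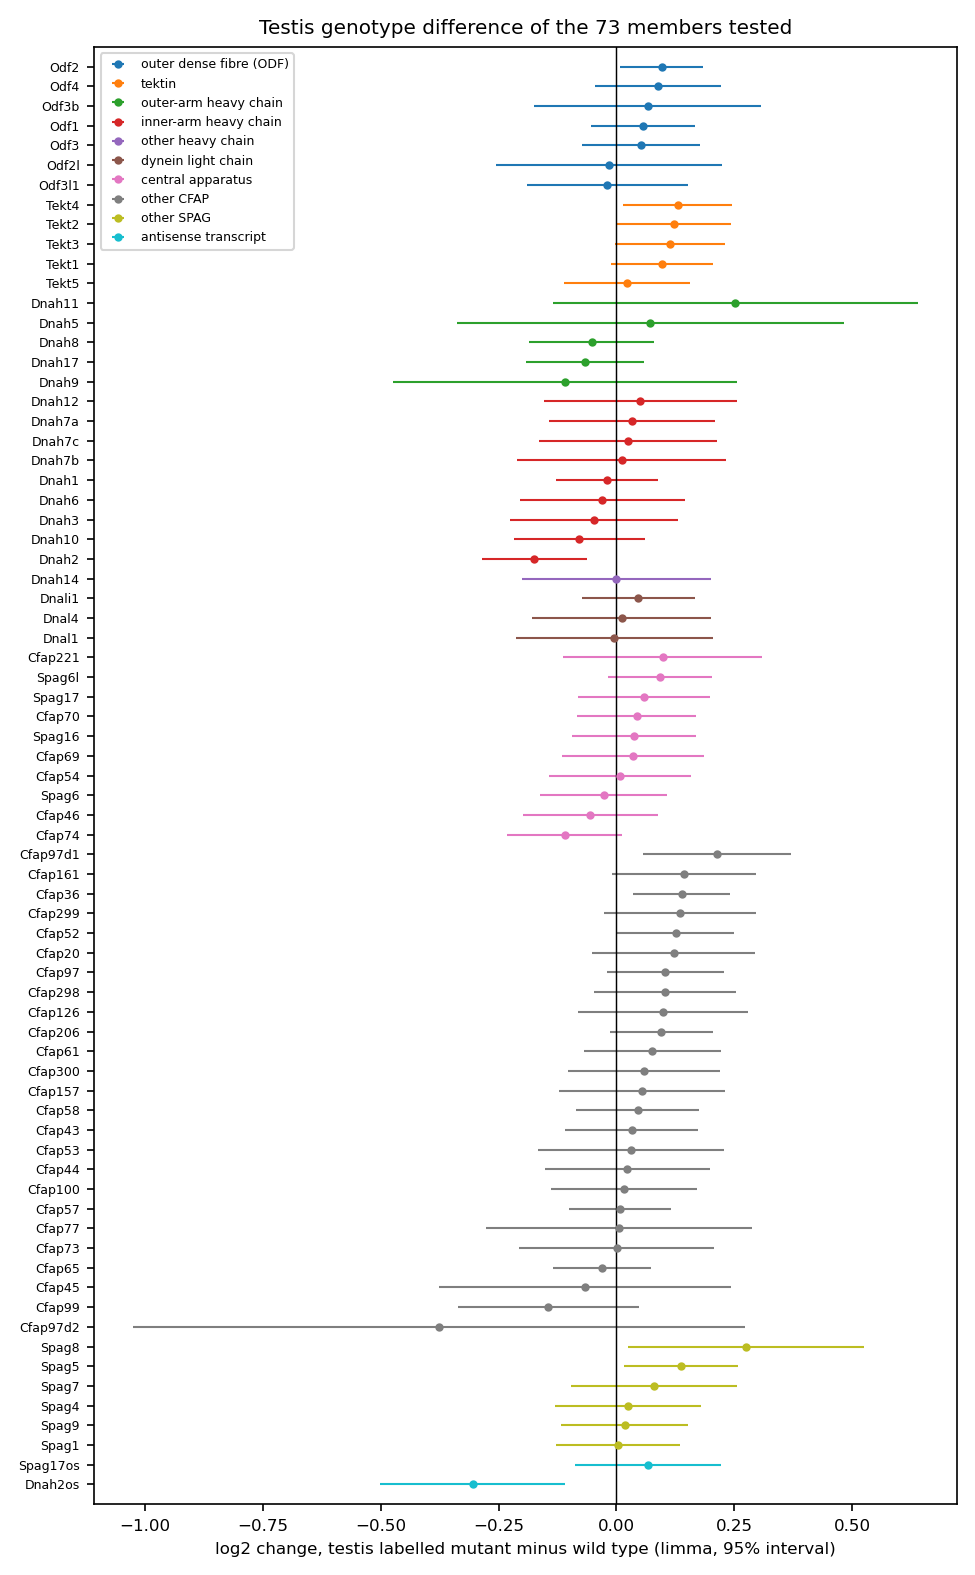
Log2 change in testis, libraries labelled BckdkM/M minus wild type (limma on log2 of normalised count + 1, 3 libraries each), with 95% intervals, for the 73 members tested, coloured by role and ordered within each role. Most points lie within 0.25 of 0, and Cfap97d2, at -0.38, has the widest interval.

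All 5 tektins, filament proteins inside the doublet wall, had higher means in the libraries labelled BckdkM/M, with a median log2 change of 0.11 against 0.034 for all genes, and 0 of 5 passed the adjusted threshold. With TMM scaling, edgeR or DESeq2, 4 of 5 were higher, and 0 of 5 had an unadjusted p below 0.05. Tekt4 (chr17:25454615-25476602), known in mouse for sperm progressive motility, had 2883, 2966 and 2956 normalised counts in D, E and F, against 2783, 2695 and 2574 in A, B and C of wild type. Its log2 change was 0.13 ± 0.05 (SE, unadjusted p = 0.031, limma adjusted p = 0.70). Tekt1 had 3923, 3978 and 3784 in D, E and F, against 3719, 3539 and 3670 in A, B and C, and Tekt3 had 2294, 2431 and 2415 against 2241, 2164 and 2191. In both genes the lowest library labelled BckdkM/M lay just above the highest wild-type library. Tekt2 (4258, 3920 and 4056 in D, E and F, against 3668, 3621 and 3952 in A, B and C) and Tekt5 (1615, 1685 and 1734 against 1722, 1558 and 1679) overlapped between the groups. Tekt2 shares 396 exon bases with the opposite-strand transcript Gm12945, and how strand was treated in counting is not stated.

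Markers fixed for elongating spermatids, such as protamines and transition proteins, also had higher group means, but differed from the tektins by library. Relative to each gene's mean over the 6 testis libraries, their median log2 difference was 0.08, -0.08 and 0.10 in D, E and F, against -0.11, 0.02 and -0.09 in A, B and C. For the tektins it was 0.04, 0.08 and 0.06 in D, E and F, against -0.02, -0.09 and -0.04 in A, B and C. Of 9 markers, 9 were higher in D, E and F, with a median log2 change of 0.17 and 0 of 9 past the adjusted threshold. Their summed normalised counts were 197189, 183794 and 192600 in D, E and F, against 169633, 183568 and 165767 in A, B and C of wild type. Round spermatid markers, which include the member Spag6l, summed to 23362, 22024 and 23864 in D, E and F, against 21942, 22603 and 21896 in A, B and C. Leydig cell markers were higher in 6 of 7 genes, with a median log2 change of 0.14, 0 past the adjusted threshold and 3 below an unadjusted p of 0.05. They summed to 8798, 8022 and 6658 normalised counts in D, E and F, against 6805, 6812 and 6707 in A, B and C of wild type. The part of these in the tektin and Odf2 values was not tested, and in whole testis more cells of a stage and more RNA per cell cannot be told apart.

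Dynein heavy chains are the motors of the arms. In the outer arm, Dnah8 (chr17:30624354-30877365) and Dnah17 (chr11:118021723-118130634), the chains used in sperm, averaged 826 and 555 normalised counts per kb in testis labelled BckdkM/M, and 858 and 581 in wild type. Dnah5, Dnah9 and Dnah11, the chains used in airway cilia, averaged 4.11, 7.26 and 7.31 per kb in testis labelled BckdkM/M, and 3.86, 7.82 and 6.09 in wild type. The outer-arm chains of sperm thus stood about 2 orders of magnitude above those of airway cilia in both genotypes. Dnah8 had 22380, 20939 and 23111 normalised counts in D, E and F, against 21559, 22226 and 25211 in A, B and C of wild type. Its lowest library was E and its highest was C, with the groups overlapping.

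The 9 inner-arm heavy chains, which shape the bend of the tail, lay closer together, from 138 to 245 per kb in testis labelled BckdkM/M and from 137 to 245 per kb in wild type. Dnah2 (chr11:69420809-69549110, minus strand) had 3132, 3077 and 3252 normalised counts in D, E and F, against 3454, 3633 and 3591 in A, B and C of wild type. All 3 libraries labelled BckdkM/M were lower, by -0.17 ± 0.05 on the log2 scale (SE, unadjusted p = 0.0050, limma adjusted p = 0.70). Its antisense transcript Dnah2os (chr11:69448548-69453676, plus strand) had 243, 248 and 253 in D, E and F, against 301, 315 and 304 in A, B and C, a log2 change of -0.31 ± 0.09 (SE, unadjusted p = 0.0052, limma adjusted p = 0.70). The 2 genes share 312 exon bases, 36.3% of Dnah2os and 2.08% of Dnah2, so without strand information reads there cannot be assigned to one of them. Spag17os, antisense to Spag17, averaged 1038 ± 14.1 in testis labelled BckdkM/M and 993 ± 77.8 in wild type (SD, n = 3 each). Dnah1, whose loss in men and mice gives short or malformed sperm tails, averaged 3145 ± 49.5 in testis labelled BckdkM/M and 3189 ± 71.5 in wild type (SD, n = 3 each). Dnah7a, Dnah7b and Dnah7c are near-identical copies on chromosome 1, so their separate values are uncertain.

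Many heavy chains were high or low in the same single libraries. Of 15 heavy chains, 11 were highest in wild-type C and 11 were lowest in E labelled BckdkM/M. Dnah7b had 3027, 2350 and 2885 normalised counts in D, E and F, against 2497, 2550 and 3149 in A, B and C of wild type. Dnah14, a heavy chain not assigned to an arm here, had 3996, 3116 and 3793 in D, E and F, against 3334, 3507 and 4040 in A, B and C. Both genes were high in D, F and C and low in E, A and B, and Dnah7b was named after its values were seen. Relative to each gene's mean over the 6 testis libraries, the median log2 difference of the 15 heavy chains was 0.05, -0.13 and 0.05 in D, E and F, against -0.07, -0.03 and 0.16 in A, B and C. Over all genes tested these medians lay between -0.02 and 0.03. Of the 15 chains 14 were lower in E than in C, with a median difference of -0.27 on the log2 scale, against -0.02 over the 73 members and 0.01 over all genes.

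Some members with transcripts shorter than those of the heavy chains were high in E. Cfap45 (chr1:172520801-172545870), a protein inside the doublet microtubules that was named after its values were seen, had 2215, 3490 and 2420 normalised counts in D, E and F, against 3094, 2925 and 2375 in A, B and C of wild type. It was highest in E and low in D, F and C. Cfap53, another protein of the doublet lumen, had 1384, 1671 and 1386 in D, E and F, against 1581, 1478 and 1288 in A, B and C, and was also highest in E and low in D, F and C. The 3 dynein light chains had median log2 deviations of -0.03, 0.14 and -0.04 in D, E and F, against -0.05, -0.04 and -0.00 in A, B and C. They were not low in C, and Dnal1 was highest there, at 671 normalised counts, against 659 in E. Among the 73 members, Spearman's rho between a gene's deviation in a library and its exon length was 0.09, -0.57 and 0.12 in D, E and F, against -0.19, 0.07 and 0.50 in A, B and C, as a description across genes. Over 19472 genes with a length, rho was -0.09, -0.08 and -0.06 in D, E and F, against 0.02, 0.04 and 0.13 in A, B and C. The part of transcript length in the heavy-chain values was not tested. Because E and C stand at opposite ends, the heavy chains' genotype direction turned when either was left out. Of 15 chains 6 were higher with all libraries, 10 were higher without E and 10 were higher without C, with medians of -0.02, 0.04 and 0.05. With TMM scaling or by edgeR 3 were higher and 12 lower, and by DESeq2 4 and 11, with medians of -0.06, -0.06 and -0.06. Leaving out wild-type testis libraries A and B gave 2 and 13, with a median of -0.16. In that run C, highest for 11 of 15 chains, was the only wild-type library, so this split rests on C.

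**Figure D3:**
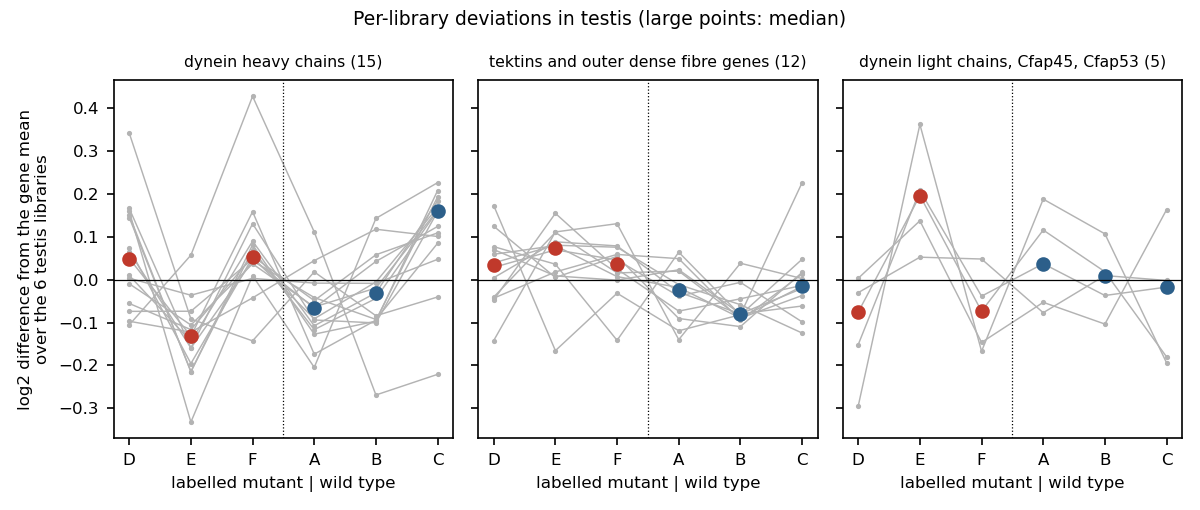
Log2 difference of each gene from its mean over the 6 testis libraries, for the 15 dynein heavy chains, for 12 tektin and outer dense fibre genes and for the 3 light chains with Cfap45 and Cfap53, with libraries D, E and F labelled mutant left of wild-type A, B and C. Large points are medians, and the heavy-chain medians are lowest in E (-0.13) and highest in C (0.16).

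The 3 dynein light chain genes overlapped between the genotypes. Dnali1, a light chain of inner arms, had the highest level of the 3 and averaged 2408 ± 76.9 normalised counts in testis labelled BckdkM/M and 2331 ± 75.3 in wild type (SD, n = 3 each). Dnal4 averaged 943 ± 122 and 931 ± 24.9 in those groups, and Dnal1, a light chain bound to an outer-arm heavy chain, 601 ± 58.9 and 603 ± 60.5. The intermediate chains under their older symbols were close to level too, with Dnaic1 at 1314 ± 71.1 and 1305 ± 57.9 and Dnaic2 at 1190 ± 74.0 and 1115 ± 51.9 in the same order of groups.

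The 10 central apparatus members, which carry signals from the central pair to the dyneins through the spokes, had a median log2 change of 0.04, 7 higher and 3 lower, with 0 of 10 below an unadjusted p of 0.05. With TMM scaling 4 were higher and 6 lower. Spag6l, an armadillo-repeat protein required in mice for sperm motility, averaged 4121 ± 50.4 normalised counts in testis labelled BckdkM/M and 3867 ± 162 in wild type (SD, n = 3 each), and its groups did not overlap. Its close copy Spag6 averaged 2004 ± 130 and 2041 ± 60.5, and reads that fit both copies may have been split, so both values are uncertain. Spag17, a large projection protein of the central pair, averaged 7387 ± 600 and 7085 ± 387, with overlapping groups. Cfap74 was lower in all 3 libraries labelled BckdkM/M, at 1862 ± 40.9 normalised counts, against 2010 ± 68.6 in wild type (log2 change -0.11, 95% interval -0.23 to 0.01, limma adjusted p = 0.73).

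Among the 25 other CFAP members 21 were higher and 4 lower in testis labelled BckdkM/M, with a median log2 change of 0.05, and with TMM scaling 14 were higher and 11 lower. None of the 25 passed the adjusted threshold. Cfap206 (chr4:34688559-34730206), a protein at the base of radial spokes, was the highest of them per kb, at 3756 in testis labelled BckdkM/M and 3519 in wild type. Cfap36 (chr11:29221532-29247409), the next highest, had 5701, 5379 and 5624 normalised counts in D, E and F, against 4993, 5094 and 5086 in A, B and C of wild type. The groups were well apart relative to their spread, with a log2 change of 0.14 ± 0.05 (SE, unadjusted p = 0.013, limma adjusted p = 0.70). Cfap97d1, needed in mice to maintain the sperm axoneme, had 1012, 919 and 959 in D, E and F, against 890, 795 and 810 in A, B and C (log2 change 0.21 ± 0.07, SE, unadjusted p = 0.012, limma adjusted p = 0.70). Cfap52, a protein inside the doublet microtubules, averaged 1576 ± 16.0 in testis labelled BckdkM/M and 1445 ± 47.9 in wild type (SD, n = 3 each).

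Of the 8 other SPAG members 6 could be tested, and all 6 had higher means in testis labelled BckdkM/M, with log2 changes of 0.00 to 0.27. Spag4, a nuclear envelope SUN protein of spermatids, and Spag9 were lower with TMM scaling, edgeR or DESeq2. In those runs 0 of the 6 had an unadjusted p below 0.05. Spag5, a mitotic spindle protein also known as astrin, had 2106, 2011 and 1993 normalised counts in D, E and F, against 1885, 1872 and 1797 in A, B and C of wild type, and the groups did not overlap (log2 change 0.14 ± 0.06, SE, unadjusted p = 0.029, limma adjusted p = 0.70). Spag11a and Spag11b, beta-defensin-like genes of the epididymis, averaged 1.64 and 0.00 normalised counts in testis labelled BckdkM/M, and 0.00 and 0.29 in wild type. Epididymal markers summed to 79.7, 66.3 and 69.3 in D, E and F, against 56.5, 341 and 44.3 in A, B and C of wild type, so library B stood apart.

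The partners of these genes were listed in 7 groups: radial spokes, nexin-dynein regulatory complex, fibrous sheath, dynein assembly, dynein docking, intraflagellar transport and cilia transcription factors. Of 75 genes found 73 were tested, 0 differed at an adjusted p below 0.05 by limma, and 5 had an unadjusted p below 0.05 (6.85%), against 7.09% of all genes. The 5 were Dnajb13, Ropn1l, Ccdc65, Ldhc and Ift43, and each was higher in the libraries labelled BckdkM/M. Dnajb13, a radial spoke cochaperone, had 2955, 2778 and 2954 normalised counts in D, E and F, against 2629, 2478 and 2532 in A, B and C of wild type, without overlap (log2 change 0.19 ± 0.05, SE, unadjusted p = 0.0049, limma adjusted p = 0.70). Ccdc65, a subunit of the nexin-dynein regulatory complex, averaged 3456 ± 61.2 in testis labelled BckdkM/M and 3109 ± 73.6 in wild type (SD, n = 3 each). Ldhc, the sperm lactate dehydrogenase, averaged 42149 ± 1012 and 39449 ± 1352 in those groups. The median log2 changes of the 7 lists lay between 0.02 for intraflagellar transport and 0.09 for the fibrous sheath, where 9 of 9 genes were higher. Gapdhs and Akap4 of the fibrous sheath list are also among the elongating spermatid markers above. The median of all genes tested was 0.034.

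In wild-type mice 74 members were tested between testis and muscle, and all 74 differed at an adjusted p below 0.05 by limma, against 87.9% of all genes. Of these, 71 were higher in testis, against 50.6% of all genes tested, and 3 were higher in muscle, against 37.3%. Most members entered the test through their testis level, so they were also counted where muscle alone gave at least 10 normalised counts in each of its 3 wild-type libraries. Of 59 such members 56 were higher in testis, against 36.4% of 15096 genes, and 3 were higher in muscle, against 49.4%. This filter was not free of the testis level. For 100 other abundant testis genes, chosen below 3% of their testis level, library medians in wild-type muscle were 1.05% (A), 1.00% (B) and 1.19% (C). At such a share a gene high enough in testis passes the filter, so the split of the 59 was partly set by it. Odf1 averaged 103-fold higher in testis than in muscle, and Dnah8 117-fold higher, with log2 changes of 6.68 (95% interval 6.46 to 6.91) and 6.86 (6.66 to 7.05) and limma adjusted p-values of 9.1e-10 and 7.2e-10. Higher values were seen in 3 of 3 testis libraries for both. TMM scaling moved the all-gene median of this comparison to 0.28, against 0.48 with the deposited size factors, and left 71 members higher in testis.

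Several members, 3 higher in muscle and 5 with a sizeable share of their testis level there, did not follow the tail pattern. Spag7 (chr11:70663771-70669416), an RNA-binding domain protein, had 428, 402 and 406 normalised counts in A, B and C of wild-type testis, against 1201, 1269 and 1620 in the muscle of the same mice. Its testis level was lower, by -1.71 on the log2 scale (95% interval -1.98 to -1.44, limma adjusted p = 1.7e-06). Spag9 (chr11:93996091-94126085), a JNK scaffold also called JIP4, had 2054, 1999 and 2172 in wild-type testis, against 4034, 4431 and 4101 in wild-type muscle. Odf3l2 (chr10:79639526-79645738), named for its resemblance to Odf3, had 0.88, 0.00 and 0.00 normalised counts in wild-type testis, against 88.8, 68.2 and 132 in wild-type muscle and the tissues did not overlap. In muscle of BckdkM/M mice, Odf3l2 had 27.4, 81.5 and 72.5 in D, F and G, overlapping wild type.

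Odf2l, Dnal1, Cfap298, Cfap20 and Dnal4 were higher in testis but kept a median of 28.0%, 23.3%, 20.2%, 15.7% and 14.6% of their mean testis level across the 6 muscle libraries. Cfap298 (chr16:90925809-90935114), which helps assemble dynein arms, had 2314, 2274 and 2226 normalised counts in wild-type testis, against 436, 483 and 657 in wild-type muscle. It shares 703 exon bases, 44.2% of its exons, with the opposite-strand Gm49727. Cfap20, a protein of the doublet seam that is also found in nuclei, averaged 837 ± 71.6 in wild-type testis and 133 ± 38.9 in wild-type muscle (SD, n = 3 each).

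Dnah11, Cfap97, Cfap36, Odf3b and Spag1 kept medians of 6.35%, 5.27%, 5.05%, 4.85% and 3.80%. The Dnah11 share rests on few reads, with 13.7, 8.15 and 4.14 normalised counts in muscle D, F and G, against 7.97, 4.33 and 0.00 in A, B and C, too low to be tested between the genotypes. Most members were lower in muscle, with 60 of 76 whose mean there was below 3% of that in testis. In each muscle library their median, as a percentage of the testis mean, was 1.37%, 0.519% and 0.558% in BckdkM/M D, F and G, against 0.979%, 1.00% and 1.455% in A, B and C of wild type. For the 100 most abundant other testis genes, chosen under that same limit, it was 1.27%, 0.452% and 0.486% in D, F and G, against 1.05%, 1.00% and 1.19% in A, B and C. Library D was with the wild-type libraries and F and G were both lower, in both sets of genes. Tail genes such as Odf2 (879, 519 and 370 normalised counts in D, F and G, against 785, 726 and 955 in A, B and C) and Dnah8 (253, 60.1 and 42.5 against 189, 195 and 208) followed this order. Pancreatic islet markers also set muscle F and G apart, but upward. They summed to 13213, 31284 and 29445 in D, F and G, against 15196, 13323 and 12991 in A, B and C, and their bearing on the members was not tested.

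**Figure D4:**
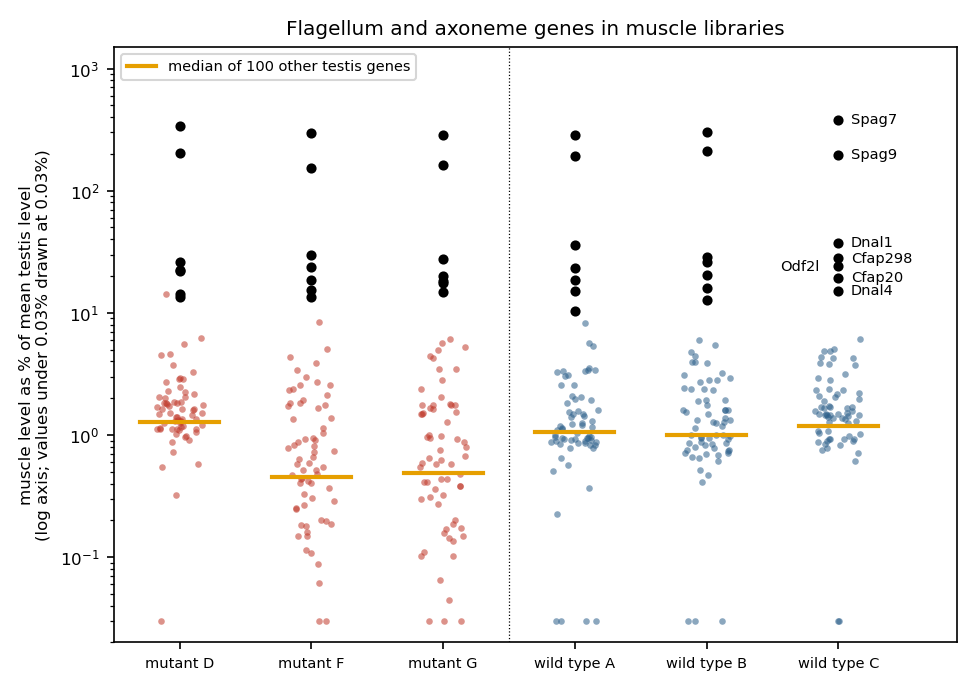
Level of each of the 73 members tested in testis in single muscle libraries, as a percentage of its mean testis level (log axis), with BckdkM/M D, F and G left of wild-type A, B and C. Bars are the medians of 100 other abundant testis genes, black points are the 7 labelled members, and in F and G most other members lie lower along with the bars, at medians of 0.452% and 0.486%.

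None of 64 members tested in muscle differed between the genotypes by limma at an adjusted p below 0.05, against 6 of 16246 genes (0.0369%). At an unadjusted p below 0.05 there were 7 (10.9%), against 9.52% of all genes, with 7 lower in BckdkM/M muscle, against 6.31%, and 0 higher, against 3.21%. The same level was passed by fewer members with the count tests, as edgeR gave 3 (4.69%), against 8.73% of all genes, and DESeq2 gave 2 (3.12%), against 8.21%. The values did not overlap for 5 of 64 members (7.81%), against 14.0% of all genes, with 5 lower, against 8.85%, and 0 higher, against 5.11%. Of the 64 members 58 were lower in BckdkM/M muscle, with a median log2 change of -0.51, against -0.04 for all genes. The 50 members tested that were below 3% of their testis level had a median of -0.57, the 14 above that limit had -0.09, and the 100 other testis genes had -0.69. The count depended on library D. Without D, 10 of 61 members were called lower, as were 62 of the 100 other testis genes and 408 of 15964 genes in all. Without F alone or G alone, 0 members were called, and the medians of the members below 3% were -0.43 and -0.45. Without both, D was the only BckdkM/M library left, and that median was 0.27. Lower member values in BckdkM/M muscle went along with lower levels of the other testis genes in F and G, whose part in the result was not tested. Some members, among them Dnah1, Cfap100 and Cfap126, were below every wild-type library in D as well.

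Members with a sizeable share of their testis level in muscle showed no called difference there either. Spag7 had 1430, 1254 and 1217 normalised counts in BckdkM/M muscle D, F and G, against 1201, 1269 and 1620 in A, B and C of wild type (log2 change -0.06 ± 0.15, SE, limma adjusted p = 0.90). Spag9 had 4285, 3206 and 3411 in D, F and G, against 4034, 4431 and 4101 in A, B and C. Cfap298 had 527, 440 and 469 in D, F and G, against 436, 483 and 657 in A, B and C. Cfap126 is not one of these members, as its median across the muscle libraries was 2.32% of its testis level. It is a protein of the doublet lumen, also known from basal body docking, and was named after its values were seen. Cfap126 had 21.7, 23.4 and 20.7 in D, F and G, against 42.1, 35.7 and 37.2 in A, B and C, so its D value was low along with F and G. Its log2 change was -0.78 ± 0.30 (SE, unadjusted p = 0.024, limma adjusted p = 0.52). With all 12 libraries in one model the limma adjusted p was 0.040, and 28 of 16227 genes were called there, against 6 of 16246 in the main run.

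The difference between the genotype effects in testis and in muscle was tested for 63 members, and 0 passed an adjusted p of 0.05 in the limma interaction, against 2 of 14677 genes (0.0136%). That fit took all libraries as independent, although mice A, B, C, D and F each gave both tissues. At an unadjusted p below 0.05 there were 11 of 63 members, against 8.69% of all genes, with 11 higher in testis than in muscle, against 6.55%, and 0 lower, against 2.13%. DESeq2 called 2 of 63, Dnah1 and Cfap100, and 50 of 14677 genes (0.341%). By edgeR 0 of 63 members and 1 of 14677 genes were called, and without muscle library D limma called 27 of 60 (951 of 14482 genes). Dnah1 had 22.8, 5.09 and 2.07 normalised counts in BckdkM/M muscle D, F and G, against 35.3, 25.97 and 53.9 in A, B and C of wild type, and its testis values overlapped between the genotypes. Cfap100 had 16.0, 8.15 and 14.5 in D, F and G, against 29.6, 20.6 and 42.4 in A, B and C. In both genes D, F and G all lay below every wild-type library. The other abundant testis genes were at 1.27% of their testis level in D, above A, B and C, and lower in F and G, and their part in the result was not tested.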

How the data were processed

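PolyA RNA of testis and muscle was compared in 4 groups of 3 libraries. Per the submitters' processing notes, fastp 0.23.4, HISAT2 2.1.0, Picard 1.119, HTSeq 0.11.2 and DESeq2 1.46.0 were used with build GRCm38.p4, and the treatment of strand is not given in the sources used here. The authors deposited a table of signal values, read counts divided by a size factor per library, and a table of regularised log2 (rlog) values. Whole reads were recovered for 100% of the signal values to within 0.001, which gave 12852427 to 15795722 reads per library. In testis library D 26 values had become dates and were treated as missing, none of them of a member. Columns carry mouse numbers, written as letters, and tissue and genotype, but not the replicate numbers of the titles. Nothing further says how separate the mice of a group were, so p-values measure the spread between these mice.

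The tests used limma 3.58.1 in R 4.3.3 (eBayes with a trend, two-sided) on log2(normalised count + 1), on genes with at least 10 normalised counts in at least 3 libraries of the comparison, with Benjamini-Hochberg adjustment over all genes tested and calls at 0.05. Fold changes on this scale understate those of low genes. Groups of 3 against 3 do not allow a permutation test of 1 gene below p = 0.1, so variances were shared across genes. Alternatives were other pseudocounts and filters, TMM scaling, rlog values, edgeR 4.0.16 and DESeq2 1.42.0 on recovered reads, all libraries in 1 model, leaving out each library, and the mouse as a block between tissues, where letters A, B and C name the same animals. On recovered reads in testis edgeR called 3 and DESeq2 called 10 of 19543 genes. Runs without wild-type testis libraries A and B (more islet transcripts) and without muscle libraries F and G were chosen after seeing the data. Each left only 1 library in a group, C of wild-type testis and D of BckdkM/M muscle. The scripts were tested on simulated data.

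Members, role groups, pathway and marker lists were chosen with earlier results of these data known. Named members are the 2 highest per kb and the smallest testis p of each role, members without overlap in testis, those highest in muscle relative to testis, and those near 0, and any others were chosen after their values were seen. Exon lengths and positions are from GENCODE M21 on GRCm38, and promoter windows are from RefSeq on GRCm38.p6.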

Additional observations from a re-analysis of the deposited data

How the results depend on the processing

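The tests in testis called 0 of the members under every alternative run, and the tissue comparison called 66 to 74, all members tested except 1 of 75 with no filter. Within a tissue, the genotypes could not be paired, because mutant and wild-type mice are different animals and the columns carry mouse numbers and not the replicate numbers of the titles. Between tissues in wild type, the replicate block by mouse also called 74 members, and no such block was used in the interaction. The median testis change of 0.035 was -0.0036 with TMM scaling, -0.0016 by edgeR and 0.00070 by DESeq2, and 0.021 to 0.069 leaving out single libraries. The muscle count of 0 was 1 with all 12 libraries in one model, where 28 of 16227 genes were called (0.173%). It was 0 to 10 leaving out single libraries, with 497 of 15964 genes called without D (3.11%). The interaction count of 0 was 2 by DESeq2, against 50 of 14677 genes (0.341%). It was 0 to 27 leaving out single libraries, with 951 of 14482 genes called without muscle library D (6.57%).

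Some log2 changes turned sign under other settings, and the cause was not tested. In testis, with TMM scaling, edgeR and DESeq2, Dnal4 was -0.026, -0.017 and -0.014, Spag4 -0.014, -0.010 and -0.0078, and Spag9 -0.021, -0.020 and -0.018. Without wild-type libraries A and B, Spag9 was -0.049, Spag17 -0.014 and Spag17os -0.045. In muscle, Dnal4 was 0.035, 0.033 and 0.041 with TMM scaling, edgeR and DESeq2. Without muscle libraries F and G, Dnal4 was 0.0046, Cfap20 -0.12, Cfap298 0.027, Spag7 0.081, Spag9 0.034, Odf2 0.11 and Dnah8 0.36, where the changes with all libraries were -0.56 for Odf2 and -1.17 for Dnah8. Leaving out single libraries gave testis ranges of -0.072 to 0.11 for Dnah14, -0.097 to 0.015 for Dnah8, -0.074 to 0.076 for Dnal1, -0.089 to 0.090 for Dnal4, -0.11 to 0.092 for Odf2l, -0.047 to 0.083 for Spag4 and -0.016 to 0.065 for Spag9. The muscle ranges were -0.18 to 0.25 for Cfap20, -0.24 to 0.058 for Cfap298, -0.093 to 0.036 for Dnal4, -0.20 to 0.091 for Odf2l and -0.14 to 0.071 for Spag7.

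Depth limits the low members: the 4 widest testis intervals were those of Cfap97d2, Dnah5, Dnah11 and Dnah9, with means of at most 125 normalised counts.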
